A study of Mus musculus with 2 samples.

Results

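The genes described here are 9 parts of the machinery of regulated exocytosis, Snap25, Stx1a, Vamp2, Vamp8, Syt7, Rab3a, Rab3d, Rab27b and Syp, out of the 32285 genes listed for 2 libraries of single cells from mouse pancreatic tumours. They were chosen by symbol, and all 9 were found in both libraries. The EL1 library came from FVB/N mice that carry EL1-Luc/EL1-TAg, that is, luciferase and the SV40 T antigen under the promoter of elastase I, an enzyme of acinar cells. The WTg library came from a cross of EL1 with CAG-Mettl3 mice, so its cells carry the same T antigen and luciferase and in addition a Mettl3 open reading frame of C57BL/6J mice under the CAG promoter, which is active in nearly all cells. Both groups were 6 weeks old and neither was treated. The CAG-Mettl3 line was made in C57BL/6 mice, so strain background and transgene cannot be told apart. Each group had 1 library, made from animals whose number and sex the sources do not give, so no difference was tested and the spread between animals is not known.

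Regulated exocytosis is the release of stored granules or vesicles on a signal, most often a rise in calcium. Membranes fuse when Q-SNAREs of the plasma membrane (Snap25, Stx1a) zip together with an R-SNARE of the vesicle (Vamp2, Vamp8). Synaptotagmins such as Syt7 sense calcium, and Rab3 and Rab27 proteins bring vesicles to the membrane and hold them there. Neuroendocrine cells and neurons release hormone or transmitter with Snap25, Stx1a and Vamp2, and carry synaptophysin (Syp) in their small vesicles. Acinar cells of the pancreas are known to release their zymogen granules with Vamp8, Rab3d and Rab27b.

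After filtering, EL1 had 1113 cells with a median of 26543 UMIs and WTg had 905 cells with a median of 34836 UMIs. UMIs, unique molecular identifiers, count RNA molecules. The libraries shared 15 of all their barcodes and 0 among the kept cells. Mettl3, the check on the labels, stood at 15.1 CPM in EL1 against 66.7 CPM in WTg, where CPM is UMIs per 1000000 UMIs of the same cells. Cells were set apart by genes outside the set. Cells with at least 20 leukocyte-marker UMIs per 10000 numbered 50 in EL1 and 66 in WTg, and cells with endothelial or fibroblast markers at that level numbered 2 and 10. Of the remaining cells, the 25% with the highest level of Chga, a granin of neuroendocrine granules, formed the Chga-high cells, and the 25% with the highest summed level of digestive enzymes the enzyme-high cells. The 10 cells of each library in both 25% groups were left out of both.

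This gave 256 Chga-high and 256 enzyme-high cells in EL1, and 198 of each in WTg. They are ranges of cells, not cell types: 59 EL1 and 38 WTg cells lay within 10% of the Chga threshold, and 109 and 122 within 10% of the enzyme threshold. The 12 granin and prohormone markers, Chga among them, summed to 135 UMIs per 10000 in Chga-high cells against 10.6 in enzyme-high cells of EL1, and to 81.1 against 9.71 in WTg, with Scg2 at 0 in both classes of EL1 and Pcsk1n at 0 in WTg enzyme-high cells. Chga, which set the class, made up most of the Chga-high sums, at 12152 CPM in EL1 and 6531 CPM in WTg. In enzyme-high cells it was at 748 and 501 CPM, so the contrast of the sums follows largely from how the classes were set. The 27 enzymes summed to 826 and 2693 UMIs per 10000 in Chga-high and enzyme-high cells of EL1 and to 1162 and 3164 in WTg, so Chga-high cells also held much enzyme RNA. Leukocyte markers summed to between 0.0259 and 0.0473 UMIs per 10000 in these 4 classes, with 4 to 6 of the 13 markers at 0. Endothelial markers summed to between 0.0303 and 0.113, fibroblast markers to between 0.00173 and 0.00979 and red cell genes to between 0.0575 and 0.366. Duct markers summed to 1.87 in Chga-high and 0.668 in enzyme-high cells of EL1 and to 1.34 and 3.52 in WTg, and their part in the results was not tested. Doublets called by Scrublet numbered 4 in each library, and 0 of them lay in the Chga-high or enzyme-high cells.

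The upstream sequences of 4 of the genes are shown because they set a pair that was higher in Chga-high cells (Stx1a, Syp) beside a pair that differed little in CPM (Vamp8, Rab3d). Each line gives the 250 bases before the annotated start in RefSeq, build GRCm38.p6, 5′ to 3′ on the strand of the gene. Capitals mark the GC box GGGCGG on either strand, the site type known to bind Sp1.
Stx1a (chr5:135023232-135023481, plus strand): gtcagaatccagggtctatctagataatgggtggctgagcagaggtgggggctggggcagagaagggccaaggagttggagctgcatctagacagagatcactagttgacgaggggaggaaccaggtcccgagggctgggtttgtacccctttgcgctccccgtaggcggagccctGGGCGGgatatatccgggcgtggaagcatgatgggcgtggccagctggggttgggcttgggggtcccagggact
Syp (chrX:7638330-7638579, plus strand): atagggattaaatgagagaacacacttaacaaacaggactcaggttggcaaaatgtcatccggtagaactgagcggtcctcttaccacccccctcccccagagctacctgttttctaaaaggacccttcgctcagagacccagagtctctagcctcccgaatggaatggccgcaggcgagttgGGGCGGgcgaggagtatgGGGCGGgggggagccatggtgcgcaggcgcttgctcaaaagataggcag
Vamp8 (chr6:72390668-72390917, minus strand): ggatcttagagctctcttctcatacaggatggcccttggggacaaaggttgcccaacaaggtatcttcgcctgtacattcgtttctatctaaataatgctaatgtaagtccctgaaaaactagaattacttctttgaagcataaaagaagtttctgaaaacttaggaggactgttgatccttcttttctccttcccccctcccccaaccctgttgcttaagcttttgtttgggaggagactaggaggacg
Rab3d (chr9:21918184-21918433, minus strand): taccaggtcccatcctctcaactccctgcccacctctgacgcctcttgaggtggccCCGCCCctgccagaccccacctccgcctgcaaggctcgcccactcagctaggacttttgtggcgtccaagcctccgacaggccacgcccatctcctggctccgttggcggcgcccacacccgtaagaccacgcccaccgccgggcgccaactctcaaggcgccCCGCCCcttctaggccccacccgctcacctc
Motifs were searched in RefSeq windows of the 250 bases before the start, the same stretch as in the lines printed. Windows matched 5 of the 9 genes, with 6 windows because Rab3a has 2. The GC box was found in the windows of Stx1a, Syp and Rab3d and in 1 of the windows of Rab3a, and not in that of Vamp8. Of 32817 such windows, 32.7% held it. The cyclic AMP response element TGACGTCA (in 1.55% of all windows), the E-box CAGATG (14.5%) and the TATA box TATAAA (12.4%), searched on both strands, were in 0 of the 6 windows, and the E-box CACCTG (17.2%) was in the other Rab3a window. A match is a string of letters and no evidence of binding, and GC boxes lay both in genes that differed between the classes of cells and in Rab3d, which passed 2-fold in neither library.

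The first comparison asked how the machinery differed between Chga-high and enzyme-high cells of the same library. Snap25, Stx1a, Syp, Syt7 and Vamp2 were higher in Chga-high cells by more than 2-fold in both libraries. Rab27b was lower in Chga-high cells in both, by more than 2-fold in EL1. Vamp8 and Rab3d stayed within 2-fold, and Rab3a was above it in WTg alone. Intervals given after a value are exact 95% Poisson intervals for a level and exact conditional binomial intervals for a log2 ratio, and cover counting error only.

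**Figure D1:**
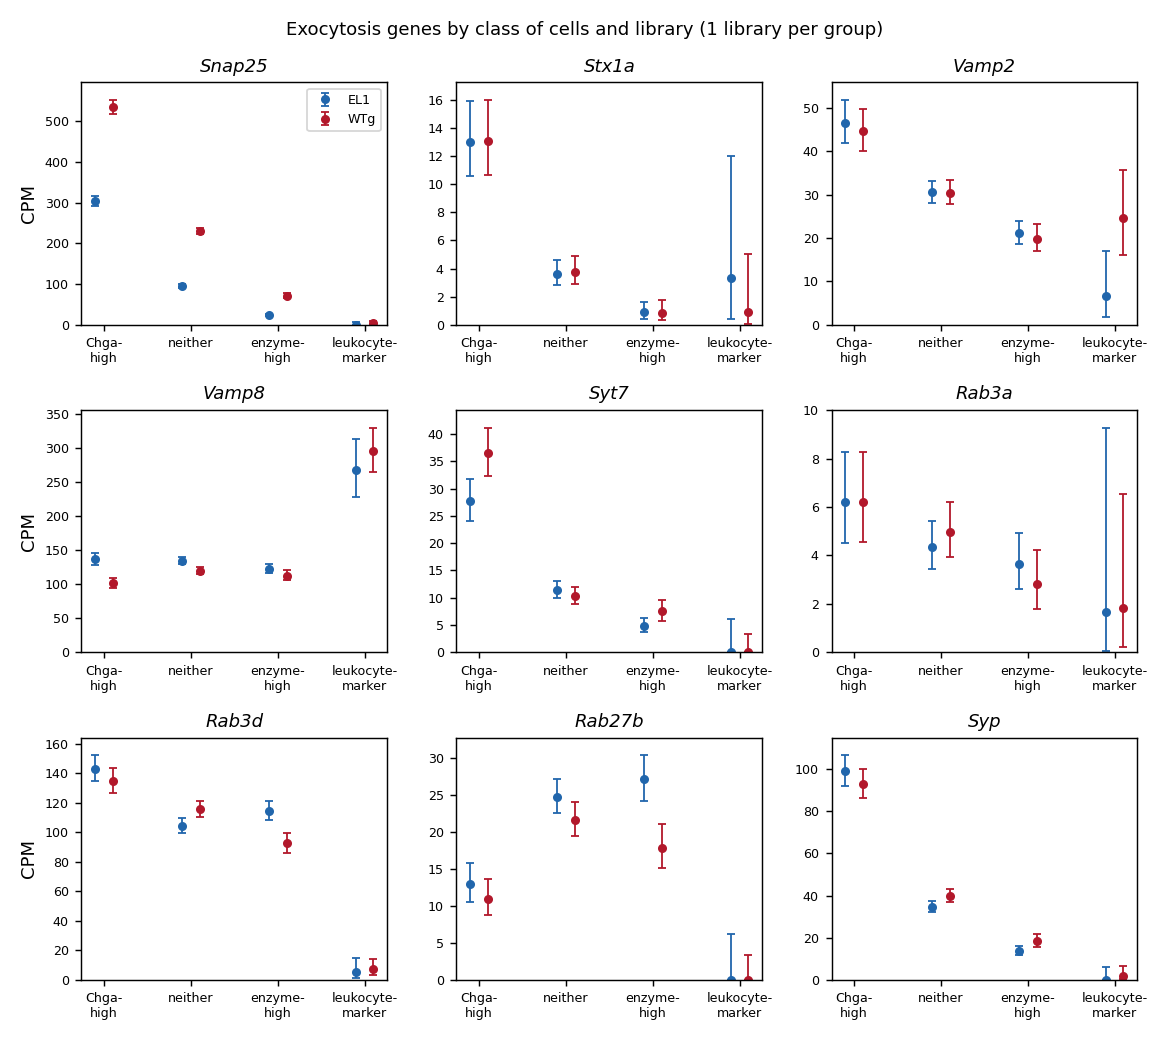
Level of each gene in CPM (linear axis from 0, 1 panel per gene) in 4 classes of cells of EL1 (blue) and WTg (red), with exact 95% Poisson intervals as bars. Snap25, Stx1a, Syt7 and Syp are higher in Chga-high than in enzyme-high cells of both libraries, Rab27b is lowest in Chga-high cells among the tumour classes, and Vamp8 is highest in leukocyte-marker cells.

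Snap25, a plasma membrane SNARE of the neuronal fusion complex, was graded across the classes. In EL1 it was at 303 CPM (291 to 316) in Chga-high cells, 94.7 CPM in cells of neither class and 23.6 CPM (20.9 to 26.6) in enzyme-high cells. In WTg the levels were 534 CPM (518 to 551), 230 CPM and 71.2 CPM (65.5 to 77.2). The order was the same in both libraries and no intervals of neighbouring classes met. The log2 ratio of Chga-high over enzyme-high was 3.68 (3.50 to 3.87) in EL1 and 2.91 (2.78 to 3.04) in WTg. Within enzyme-high cells the Snap25 UMIs were uneven, with 10 cells holding 44.7% of them in EL1 and 37.5% in WTg, against 20.7% in Chga-high cells of each library. Leukocyte-marker cells held 0 Snap25 UMIs in EL1 (Poisson upper bound 6.14 CPM) and 4 in WTg (3.63 CPM, 0.989 to 9.30), below the enzyme-high level of the same library.

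Stx1a, the syntaxin that pairs with Snap25 in neurons and endocrine cells, was sparse. It had 97 UMIs in Chga-high cells of each library, or 13.1 CPM in both EL1 (10.6 to 15.9) and WTg (10.6 to 16.0). Enzyme-high cells had 10 UMIs in EL1, or 0.865 CPM, and 7 in WTg, or 0.856 CPM. The libraries gave almost the same values, and the log2 ratios of 3.92 (2.98 to 5.02) and 3.94 (2.84 to 5.29) rest on these few enzyme-high UMIs. In leukocyte-marker cells Stx1a had 2 UMIs in EL1 and 1 in WTg. These come to 3.33 and 0.908 CPM, no lower than the enzyme-high levels, with intervals that reach 12.0 and 5.06 CPM. Enzyme-high Stx1a was thus not set apart from the leukocyte-marker level in either library.

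Vamp2, the vesicle SNARE of synaptic and hormone granules, differed less. It was at 46.6 CPM (41.8 to 51.7) in Chga-high and 21.1 CPM (18.5 to 23.9) in enzyme-high cells of EL1, and at 44.6 CPM (39.9 to 49.7) and 19.8 CPM (16.9 to 23.1) in WTg. The log2 ratios, 1.14 (0.90 to 1.38) and 1.17 (0.90 to 1.45), have lower bounds under the 2-fold line. Leukocyte-marker cells of WTg also held Vamp2, with 27 UMIs. Their level of 24.5 CPM (16.1 to 35.7) was not set apart from that of enzyme-high cells. Those of EL1 held 4 UMIs, and their 6.66 CPM (1.81 to 17.1) lay below the enzyme-high interval. Vamp8, the vesicle SNARE that zymogen granules and granules of blood cells use, was nearly level across the tumour classes. In EL1 it was at 136 CPM (128 to 145) in Chga-high and 123 CPM (117 to 129) in enzyme-high cells. In WTg it was at 102 CPM (94.8 to 109) and 113 CPM (106 to 120). The log2 ratios were 0.15 (0.03 to 0.27) in EL1 and -0.14 (-0.28 to -0.00) in WTg, so the libraries differed in sign at a size far below 2-fold, and under TMM scaling, which sets the bulk of genes to no change, both were below 0 (-0.44 and -0.81). The highest Vamp8 level was in leukocyte-marker cells, with 268 CPM (228 to 313) for EL1 and 296 CPM (265 to 330) for WTg.

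Syt7, a calcium sensor of slow and high-affinity release, was at 27.7 CPM (24.1 to 31.8) in Chga-high cells and 4.84 CPM (3.66 to 6.29) in enzyme-high cells of EL1. In WTg it was at 36.5 CPM (32.3 to 41.1) and 7.46 CPM (5.71 to 9.59). The log2 ratios were 2.52 (2.09 to 2.97) and 2.29 (1.88 to 2.72), and leukocyte-marker cells of both libraries held 0 Syt7 UMIs (Poisson upper bounds 6.14 and 3.35 CPM). In both libraries its class intervals were well apart, as those of Snap25 and Stx1a were.

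The Rab proteins did not share a direction. Rab3a, the Rab3 form of neurons and endocrine cells, was near 6 CPM in Chga-high cells, with 46 UMIs in each library, and in enzyme-high cells at 3.63 CPM (EL1) and 2.81 CPM (WTg). Its log2 ratios of 0.77 (0.13 to 1.41) and 1.14 (0.39 to 1.93) rest on 42 and 23 enzyme-high UMIs and lie on either side of 2-fold. For Rab3a, leukocyte-marker cells gave 1.66 CPM (EL1) and 1.82 CPM (WTg), from 1 and 2 UMIs. The upper bounds, 9.28 and 6.56 CPM, lie above the levels of both tumour classes, so these few UMIs do not set the classes apart from leukocyte-marker cells. Rab3d, the Rab3 form of zymogen granules, was at 143 CPM (135 to 152) and 115 CPM (109 to 121) in Chga-high and enzyme-high cells of EL1. In WTg it was at 135 CPM (127 to 144) and 92.5 CPM (86.0 to 99.3). Its log2 ratios of 0.32 (0.20 to 0.44) and 0.55 (0.41 to 0.68) were above 0 in CPM, below the median of all genes, and below 0 under TMM scaling (-0.27 and -0.12). Rab3d was nearly missing from leukocyte-marker cells, with 3 UMIs in EL1 and 8 in WTg.

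Rab27b, a Rab of zymogen and other secretory granules, was the member with the opposite direction. It was at 12.9 CPM (10.5 to 15.8) in Chga-high and 27.2 CPM (24.2 to 30.3) in enzyme-high cells of EL1, and at 11.0 CPM (8.70 to 13.6) and 17.9 CPM (15.1 to 21.0) in WTg. The intervals of the classes did not meet in either library. The log2 ratios were -1.07 (-1.42 to -0.74) and -0.71 (-1.12 to -0.30), and TMM scaling gave -1.66 and -1.37. With a stricter cell filter the ratio in EL1 was -0.95, short of 2-fold. Leukocyte-marker cells held 0 Rab27b UMIs in both libraries.

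Syp, the synaptophysin of small vesicles and a pathologist's marker of neuroendocrine tumours, was at 99.1 CPM (92.0 to 106) in Chga-high and 13.7 CPM (11.7 to 16.1) in enzyme-high cells of EL1. In WTg it was at 92.9 CPM (86.1 to 100.1) and 18.5 CPM (15.6 to 21.7). The log2 ratios were 2.85 (2.60 to 3.11) and 2.33 (2.07 to 2.59). Cells of neither class lay between, at 34.6 and 39.8 CPM, and leukocyte-marker cells held 0 UMIs in EL1 and 2 in WTg.

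In all, 5 of the 9 genes were higher by 2-fold in EL1, where 22.9% of 12187 tested genes were, and 1 was lower, where 2.51% were. In WTg, 6 of the 9 were higher (26.9% of 11877 tested genes) and 0 lower (2.58%). In both libraries at once, 5 were higher (14.5% of 11535 genes tested in both) and 0 lower (1.3%). A gene counts as tested, with no significance test, when it had at least 20 UMIs in the cells compared. The whole transcriptome leaned the same way: the median log2 ratio of all tested genes was 0.57 in EL1 and 0.68 in WTg, beside 1.14 and 1.17 over the 9 genes. TMM (trimmed mean of M-values) scaling lowered all ratios by 0.59 in EL1 and 0.67 in WTg. Under it Snap25, Stx1a, Syt7 and Syp were higher and Rab27b was lower by 2-fold in both libraries, 4 and 1 of the 9, beside 4.44% and 2.9% of all genes, and Vamp2 was at 0.55 and 0.50. Over 11 alternatives in each library the ratio of Snap25 ran from 2.79 to 4.12 in EL1 and from 2.24 to 4.33 in WTg, and those of Snap25, Stx1a, Syt7 and Syp stayed past 2-fold under each.

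**Figure D2:**
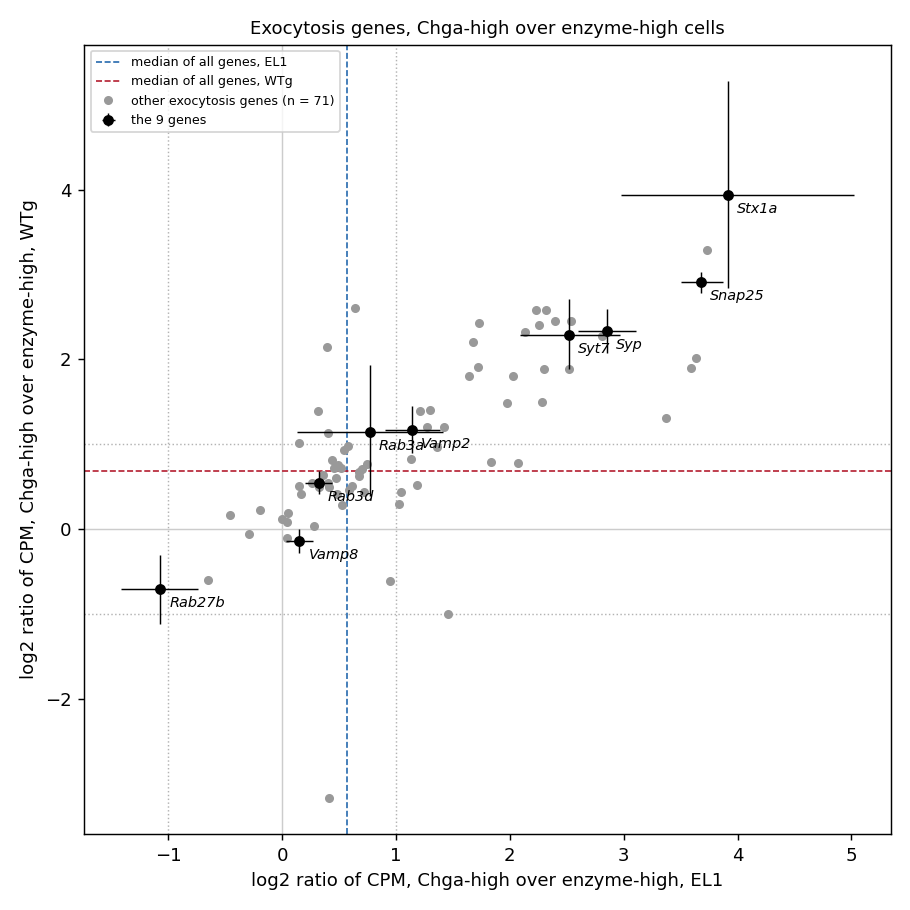
Log2 ratio of CPM, Chga-high over enzyme-high cells, in EL1 (horizontal) and WTg (vertical) for the 9 genes (black, with 95% conditional binomial intervals) and 71 other exocytosis genes (grey). Dotted lines mark 2-fold and dashed lines the median of all tested genes, 0.57 in EL1 and 0.68 in WTg. Rims1, the lowest point, rests on 20 and 2 UMIs in WTg. Stx1a, Snap25, Syp and Syt7 lie at the upper right, and Rab27b at the lower left.

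Levels were also followed over all cells outside the leukocyte and stroma classes, ordered by Chga and cut into 4 equal parts, a view chosen after seeing the data. Snap25 was higher in each successive part, at 2.34, 35.2, 183 and 293 CPM in EL1 and at 16.3, 176, 286 and 518 CPM in WTg. So was Syp, at 6.83, 16.7, 62.1 and 97.9 CPM in EL1 and at 4.88, 30.6, 53.3 and 90.6 CPM in WTg. Rab27b ran the other way, at 31.4, 25.8, 19.0 and 12.7 CPM in EL1 and at 25.6, 20.3, 16.9 and 10.8 CPM in WTg. Stx1a, Vamp2 and Rab3d were also higher in each successive part of both libraries, in CPM and with no TMM scaling of the parts. Stx1a was at 0.917, 1.78, 5.40 and 12.7 CPM in EL1 and at 1.83, 2.81, 3.48 and 12.7 CPM in WTg. Vamp2 ran from 21.2 to 45.4 CPM in EL1 and from 20.9 to 43.9 CPM in WTg, and Rab3d, with a narrower range for its level, from 94.9 to 143 CPM and from 86.1 to 133 CPM. Syt7 was highest in the top part, at 26.5 CPM for EL1 and 35.7 CPM for WTg, but in EL1 its lowest parts were at 7.65 and 6.68 CPM. Rab3a was highest in the third part of both libraries, at 6.10 and 6.53 CPM, beside 5.91 and 6.14 CPM in the top part. Vamp8 had no order in EL1, at 136, 125, 131 and 134 CPM, and a downward order in WTg, at 125, 117, 113 and 102 CPM.

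**Figure D3:**
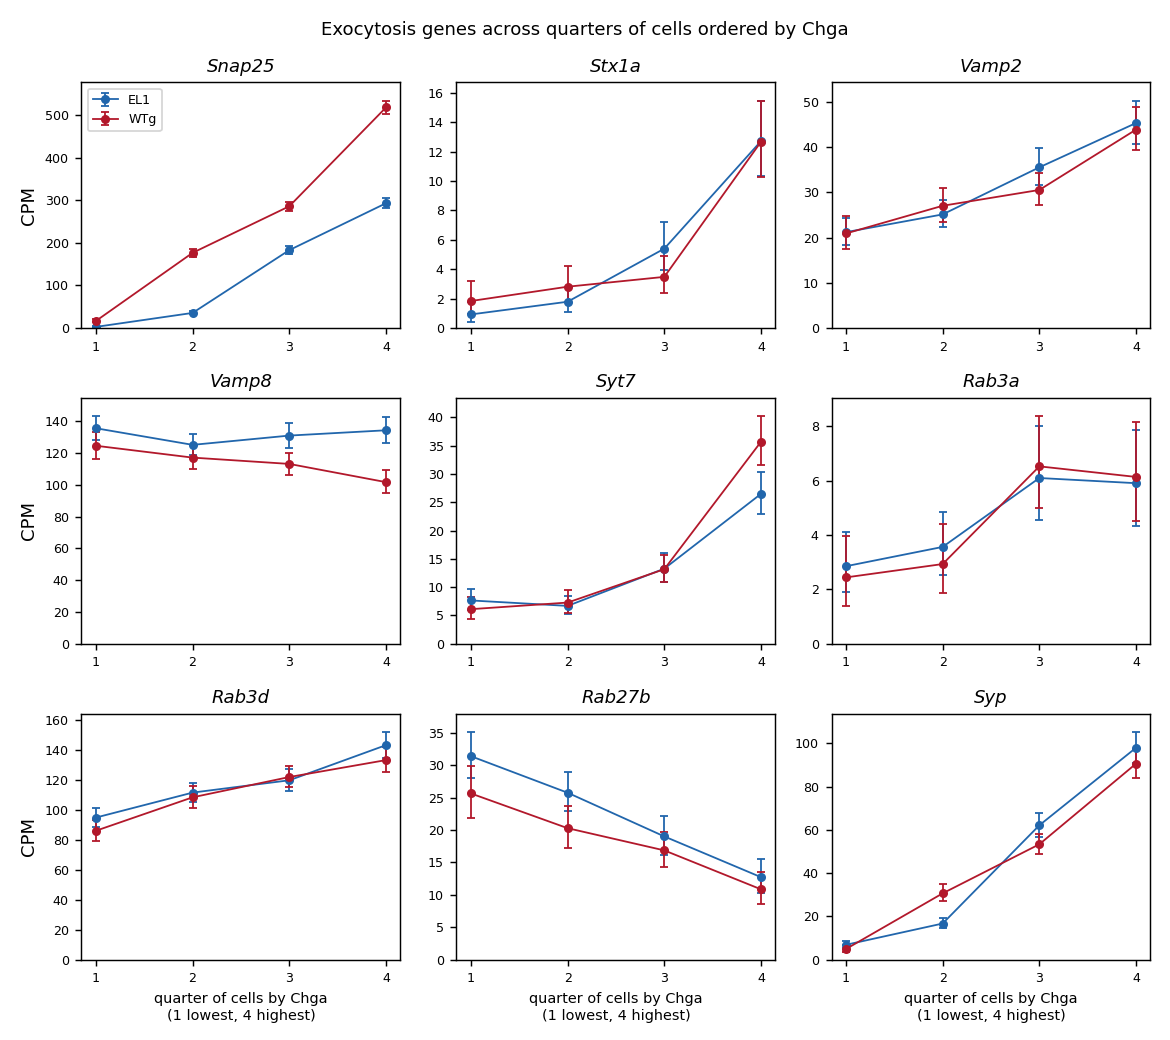
Level of each gene in CPM (linear axis from 0) in 4 equal parts of the cells ordered by Chga, from the lowest (1) to the highest (4), in EL1 (blue) and WTg (red), with exact 95% Poisson intervals. Snap25, Syp, Stx1a, Vamp2 and Rab3d are higher in each successive part, Syt7 is highest in the top part, and Rab27b runs the other way in both libraries. For Stx1a, Vamp2 and Rab3d, intervals of neighbouring parts overlap at several steps.

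Ordered by the summed enzymes instead, Snap25 ran from 225 to 25.4 CPM in EL1 and from 581 to 72.4 CPM in WTg between the lowest and the highest part. Rab27b went from 16.8 to 26.5 CPM in EL1, while in WTg it was at 15.4, 21.2, 16.5 and 17.8 CPM with no order. Rab27b was thus ordered by Chga in both libraries and by enzymes in EL1, a difference between the libraries that was not tested.

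The share of cells with a UMI was compared after each cell was thinned to 2000 UMIs, since depth differed between classes: the medians before thinning, among cells deep enough to enter, were 23027 in Chga-high, 32942 in enzyme-high and 7411 in leukocyte-marker cells of EL1, and 36364, 38783 and 9273 in WTg. Thinning left out 8, 4 and 3 shallower cells in EL1 and 14, 3 and 7 in WTg. Leukocyte-marker cells, which should lack Snap25 and Syp, give the background from free RNA. Snap25 had a UMI in 35.9% (exact Clopper-Pearson 29.9 to 42.2) of Chga-high and 5.16% (2.78 to 8.66) of enzyme-high cells of EL1, and in 0 of 47 leukocyte-marker cells (0 to 7.55), where the floor of 3 cells would be a share of 6.38%. In WTg the shares were 58.2% (50.7 to 65.4), 8.21% (4.76 to 13.0) and 1.69% (0.0429 to 9.09). The enzyme-high and leukocyte-marker intervals overlapped in both libraries, so at this depth the shares do not set enzyme-high Snap25 apart from the background. The levels in CPM given above, which use all UMIs, were higher in enzyme-high than in leukocyte-marker cells with intervals that did not meet. Syp was found in 17.3% of Chga-high and 4.37% of enzyme-high cells of EL1 and in 13.0% and 3.59% in WTg, with 0 of 47 and 0 of 59 leukocyte-marker cells.

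Of the 9 genes, 4 had a higher share in Chga-high than in enzyme-high cells with intervals that did not overlap in either library, Snap25, Syp, Syt7 and Vamp2. Over 11535 genes 2.42% did. Vamp8 had nearly equal shares, 24.2% and 21.0% in EL1 and 16.8% and 15.9% in WTg, and Rab3d 21.0% and 17.5% in EL1 and 19.6% and 17.4% in WTg. Rab27b was in 0.806% of Chga-high and 4.76% of enzyme-high cells of EL1 and in 2.17% and 3.08% in WTg, with overlapping intervals. Before thinning, Snap25 had a UMI in 89.5% and 25.8% of Chga-high and enzyme-high cells of EL1 and in 91.4% and 39.9% in WTg, while Rab3d was in 81.6% to 85.2% of the cells of these 4 classes.

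**Figure D4:**
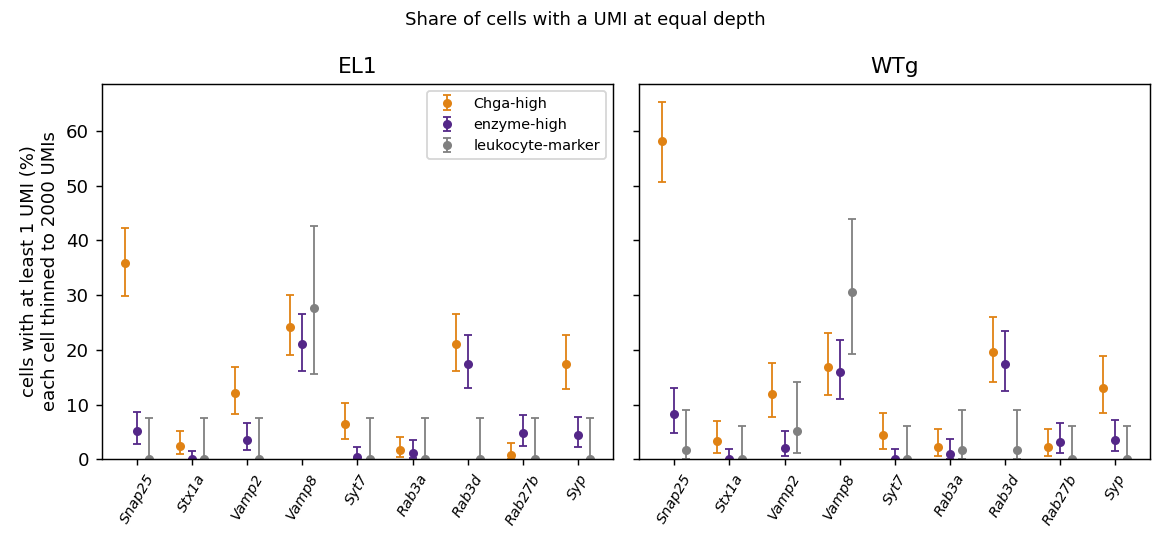
Share of cells (%) with at least 1 UMI of each gene after thinning every cell to 2000 UMIs, in Chga-high (orange), enzyme-high (purple) and leukocyte-marker cells (grey) of EL1 and WTg, with exact 95% Clopper-Pearson intervals. Snap25 separates the Chga-high cells most, Vamp8 and Rab3d are alike in both tumour classes, and Vamp8 alone is high in leukocyte-marker cells.

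Snap25, a SNARE known from neurons, and Rab3d, a Rab known from zymogen granules, were found together in Chga-high cells. At 5000 UMIs per cell, in Chga-high cells of EL1, Rab3d was found in 55.1% (46.7 to 63.3) of 147 cells with a Snap25 UMI and in 46.7% (36.1 to 57.5) of 90 cells without. In WTg it was in 45.1% (36.8 to 53.6) of 144 cells with Snap25 and 48.5% (30.8 to 66.5) of 33 without. The intervals overlapped, so no difference in Rab3d with the presence of Snap25 was detectable in Chga-high cells at this depth. Fewer enzyme-high cells had Snap25. In those of EL1, Rab3d was in 35.0% (15.4 to 59.2) of 20 cells with Snap25 and 38.0% (31.6 to 44.8) of 221 without. In those of WTg it was in 52.8% (35.5 to 69.6) of 36 with Snap25 and 31.3% (23.9 to 39.5) of 147 without, and the intervals overlapped in each library. Rab27b was rarer than Rab3d in Chga-high cells. In EL1 it was in 6.12% (2.84 to 11.3) of those with Snap25 and 8.89% (3.92 to 16.8) of those without. In WTg it was in 4.86% (1.98 to 9.76) and 6.06% (0.743 to 20.2), again with overlapping intervals.

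The second comparison set WTg against EL1. Snap25 was the 1 member of 9 past 2-fold over all cells, with 112 CPM (109 to 115) for EL1 and 248 CPM (242 to 253) for WTg, which is 1.14 (1.09 to 1.20) as a log2 ratio of WTg over EL1. Past 2-fold were 14.4% of 14991 tested genes, so the count is near the background. The ratio of Snap25 was 0.82 (0.74 to 0.89) in Chga-high cells, where 0 of 9 members and 9.97% of 12272 tested genes passed 2-fold. It was 1.59 (1.38 to 1.81) in enzyme-high cells, where 1 of 8 tested members and 14.7% of 11818 tested genes did, but with the top 10% of cells in place of the top 25% it was 0.89, short of 2-fold. Stx1a had too few UMIs there to be tested. Snap25 was also higher in WTg in each of the 4 parts of cells ordered by Chga, although Chga itself was lower in WTg in each, with 12162 CPM for EL1 against 6446 CPM for WTg in the top part.

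The other members differed by less. Syt7 was above 0 in all 3 comparisons, with log2 ratios of 0.28 (0.10 to 0.47) over all cells, 0.40 (0.13 to 0.67) in Chga-high and 0.62 (0.08 to 1.17) in enzyme-high cells. Rab27b was below 0, at -0.39 (-0.54 to -0.23), -0.24 (-0.68 to 0.20) and -0.60 (-0.90 to -0.32). Vamp8 was at -0.16 (-0.22 to -0.10), -0.42 (-0.56 to -0.28) and -0.13 (-0.25 to -0.00), the last of which turned to 0.10 under TMM scaling. Syp was at 0.13 (0.03 to 0.24) over all cells, -0.09 (-0.24 to 0.06) in Chga-high and 0.43 (0.10 to 0.76) in enzyme-high cells, and each of these took the other sign under at least 1 alternative, at -0.04, 0.28 and -0.20 in the farthest. Rab3d was at -0.06 (-0.13 to 0.00) over all cells, -0.08 (-0.21 to 0.04) in Chga-high and -0.31 (-0.44 to -0.18) in enzyme-high cells, where TMM scaling gave -0.08. For Stx1a over all cells and in Chga-high cells, and for Vamp2 and Rab3a in all 3 comparisons, the interval held 0. The median over all tested genes was -0.14 over all cells, -0.15 in Chga-high and -0.26 in enzyme-high cells, beside 0.06, -0.06 and -0.11 over the tested members.

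**Figure D5:**
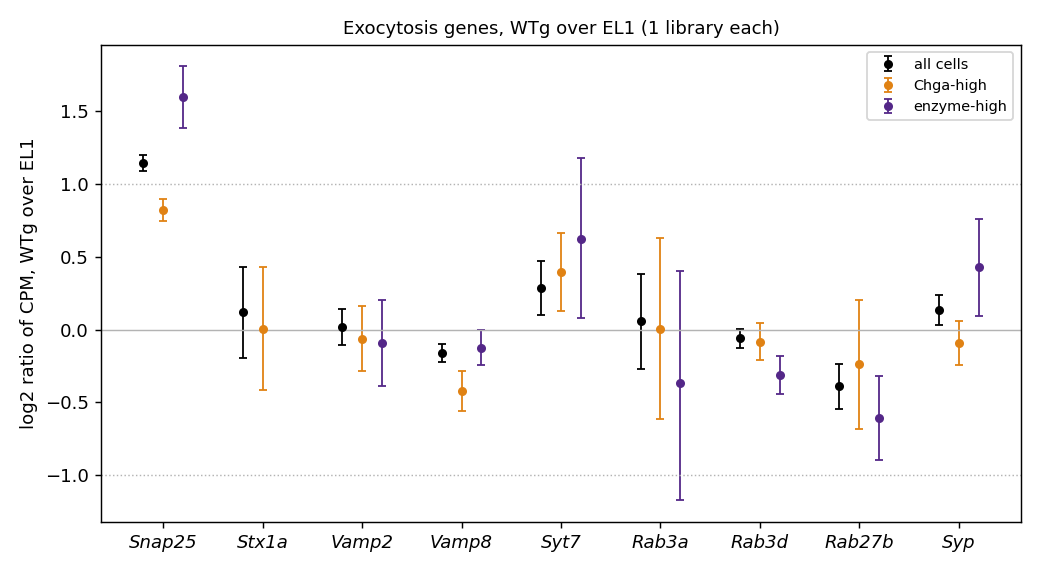
Log2 ratio of CPM, WTg over EL1 (1 library each), for each gene over all cells (black), in Chga-high (orange) and in enzyme-high cells (purple), with exact 95% conditional binomial intervals, and dotted lines at 2-fold. Snap25 alone passes 2-fold, over all cells and in enzyme-high cells, and Stx1a had too few UMIs in enzyme-high cells to be shown.

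Paralogs that take the same roles elsewhere gave a second view. Rab27a, the paralog of Rab27b used in many secretory and blood cells, was at 74.6 CPM in Chga-high and 27.8 CPM in enzyme-high cells of EL1 and at 57.9 and 25.1 CPM in WTg. Its log2 ratios, 1.43 (1.22 to 1.63) and 1.21 (0.96 to 1.45), had the opposite sign to those of Rab27b in both libraries. Under TMM scaling Rab27a was not higher by 2-fold in both libraries. Snap23, the widely expressed relative of Snap25, was at 9.69 and 11.1 CPM in EL1 and at 10.4 and 8.93 CPM in WTg, with intervals of the ratio that held 0. In EL1 that interval, -0.63 to 0.24, lay below the median of all genes, 0.57. Stx3, the syntaxin of acinar apical membranes and granules, had log2 ratios of 0.49 (0.28 to 0.70) and 0.75 (0.53 to 0.98), and Vamp3, a widely expressed vesicle SNARE, of 0.70 (0.47 to 0.93) and 0.71 (0.48 to 0.94). Both were within 0.2 of the median of all genes, unlike Snap25 and Stx1a. Rab3c, a relative of Rab3a found in neurons and endocrine cells, was at 69.2 CPM in Chga-high and 21.7 CPM in enzyme-high cells of EL1 and at 94.4 and 20.4 CPM in WTg. Its log2 ratios were 1.67 (1.45 to 1.90) and 2.21 (1.96 to 2.46), past 2-fold in both libraries. Rab3b was sparse, with 17 and 2 UMIs in EL1 and 47 and 23 in WTg Chga-high and enzyme-high cells.

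Beyond the 9 genes, 93 further genes of the pathway were listed by role, and 71 had enough UMIs for a ratio in both libraries. Higher in Chga-high cells by 2-fold in both libraries were 24 of the 71, and lower were 0, beside 14.5% and 1.3% of all genes. By role these were 1 of 7 Q-SNAREs (Stx6), 0 of 6 R-SNAREs, 4 of 12 SM proteins and SNARE cofactors, 7 of 18 Rabs with their regulators and effectors, and 6 of 17 membrane proteins of vesicles and granules. Of the synaptotagmins, Doc2 and priming factors, 6 of 11 were (Syt5, Syt11, Syt13, Syt14, Unc13a and Cadps). In EL1, Syt13 had 20 UMIs in Chga-high and 0 in enzyme-high cells, so its ratio there was set by the floor of 3 counts. The synaptotagmins, Doc2 and priming factors had median ratios of 1.84 in EL1 and 1.61 in WTg. The Q-SNAREs had 0.44 and 0.54, beside 0.57 and 0.68 over all genes. Under TMM scaling 17 genes were higher and 1 lower in both libraries (Sypl, a relative of synaptophysin), beside 4.44% and 2.9% of all genes. Stx6 and Syt13 were not among the 17. In WTg on its own, Rims1, a scaffold of release sites, was lower in Chga-high cells, with 2 UMIs against 20. Sypl and Rims1 were named after their values were seen.

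The highest mean ratios among pathway genes with at least 200 UMIs were those of 6 genes. Syt5, a synaptotagmin of dense-core granules, had log2 ratios of 3.73 (3.13 to 4.39) in EL1 and 3.28 (2.80 to 3.81) in WTg. Ptprn, a membrane protein of dense-core granules known as IA-2, had 3.64 (3.24 to 4.06) and 2.02 (1.75 to 2.29). Syt14 had 3.59 (2.68 to 4.64) and 1.90 (1.32 to 2.52). Cadps, a priming factor of dense-core granules, had 2.81 and 2.28, complexin 2 (Cplx2), which clamps and helps SNARE fusion, 2.54 and 2.45, and Sv2a, a vesicle glycoprotein, 2.32 and 2.58. Ptprn and Syt14 had higher ratios in EL1 than in WTg with intervals that did not overlap, while the intervals of Syt5 overlapped.

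Between the libraries, 2 pathway genes with at least 200 UMIs were past 2-fold in the same direction over all cells, in Chga-high and in enzyme-high cells. Sycn, syncollin of the zymogen granule membrane, had 406 UMIs in EL1 and 25909 in WTg, with log2 ratios of 6.20, 5.21 and 7.67. Syt1, the fast calcium sensor of synapses, had 18 and 211 UMIs over all cells, with 3.75 (3.06 to 4.54), 3.39 and 2.24. On the EL1 side, its ratios in Chga-high and enzyme-high cells rest on at most a part of these 18 UMIs. The 200 UMIs were counted over both libraries, and the rule of at least 20 UMIs in the cells compared was not applied here. The Syt1 ratios within a class may thus rest on too few UMIs to count as tested. Over the whole pathway list, 10 of 82 tested genes were higher by 2-fold in WTg over all cells and 0 lower, a share near the 14.4% of all genes. In Chga-high cells these were 6 and 0 of 74, beside 9.97%, and in enzyme-high cells 9 and 2 of 71, beside 14.7%. The 2 lower genes, named after their values were seen, were Syngr2, a synaptogyrin of vesicle membranes (-1.13, -1.32 to -0.94), and Rab26, a Rab of secretory granules (-1.03, -1.39 to -0.68).

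Likeness across cells was measured as Pearson's r of log2(1 + UMIs per 10000), over 1061 cells of EL1 and 829 of WTg outside the leukocyte and stroma classes, among 9881 genes. The points share a library, its depth and its free RNA, and the values are descriptive. Snap25 was most like Chga (r = 0.60 in EL1 and 0.54 in WTg), Vgf (0.57 and 0.52) and Chgb (0.57 and 0.50), all of which encode granins or granule peptides. Syp was most like Chga (0.54 and 0.47), Chgb (0.46 and 0.42) and Snap25 (0.45 and 0.42). Vamp8 was most like the ribosomal protein genes Rps4x (0.37 and 0.36), Rplp0 (0.37 and 0.35) and Rplp1 (0.40 and 0.32). No gene reached r = 0.3 in both libraries among the 3 most like Stx1a, Vamp2, Syt7, Rab3a, Rab3d or Rab27b.

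By GENCODE M21 (GRCm38), each of the 9 genes lies on a chromosome of its own. Snap25 (ENSMUSG00000027273) spans chr2:136713453-136782428, Stx1a (ENSMUSG00000007207) chr5:135023482-135051100, Vamp2 (ENSMUSG00000020894) chr11:69088490-69092384 and Vamp8 (ENSMUSG00000050732) chr6:72385223-72390703. Syt7 (ENSMUSG00000024743) spans chr19:10389090-10453180, Rab3a (ENSMUSG00000031840) chr8:70754679-70758677, Rab3d (ENSMUSG00000019066) chr9:21907491-21918192 and Syp (ENSMUSG00000031144) chrX:7638471-7653256. Syp overlaps an antisense gene, Gm14703, over 2151 bases, and Rab3a overlaps Mpv17l2 on the other strand over 29 bases. In EL1 and WTg, Gm14703 was at 2.19 and 2.15 CPM, Mpv17l2 at 35.1 and 31.0 CPM. Whether the counting used strand is not given in the sources used here, so reads of these pairs may not be separable.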

How the data were processed

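The authors made the UMI counts with Cell Ranger (6.0.2 in the file header) from 10x Chromium 3′ libraries, and deposited them per gene and barcode as raw counts. The submitters' processing notes also name R 4.1, Seurat 4.0.5 and build GRCm38. The deposited dense tables of counts were not used. Whether counting used strand is not given in the sources used here. A barcode counted as a cell if it had 500 or more genes, 1000 or more UMIs and no more than 20% of UMIs from mitochondrial genes. The rest, 508 in EL1 and 583 in WTg, entered no comparison. Of the listed enzymes, Amy2b was not among the gene symbols. UMIs were summed over cells of a class and given as CPM. With 1 library per group no test was made and no p-value given, and intervals at 95% cover counting error only. In kept cells, 3 counts, the floor for a count of 0, equal 0.0790 (EL1) and 0.0909 (WTg) CPM.

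The 9 genes, the pathway list, the marker lists and the classes of cells were chosen with earlier results of these data known. Genes named were the 9, their paralogs, pathway genes with at least 200 UMIs past 2-fold in both libraries (up to 6 in each direction) or in all 3 comparisons of WTg with EL1, and the 3 genes most like each member with r of at least 0.3 in both libraries. Alternatives were other cell filters, doublets removed (Scrublet in scanpy 1.11.5, expected rate 2%), 3 other scalings (TMM from edgeR 4.0.16 in R 4.3.3), 5 other ways to class cells, other minimum UMIs and other thinning depths. The ratios and their intervals were checked on simulated Poisson counts. These hold no spread between cells or animals, so the check covers counting error only. The thinning was checked on the EL1 cells, for the total left in each cell. Python 3.11.15, numpy 2.4.6, scipy 1.17.1 and pandas 2.3.3 were used.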

Additional observations from a re-analysis of the deposited data

Results flagged for a closer look

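Barcodes removed by the cell filter entered no comparison, and Snap25 had a signal there that was higher in WTg than in EL1, the control. It was at 540 CPM (507 to 574) in 583 barcodes of WTg and at 300 CPM (270 to 332) in 508 barcodes of EL1. It was the 1 member of the 9 whose WTg interval lay above that of EL1 in these barcodes. Both values were above those of the kept cells, 248 and 112 CPM, and near those of the Chga-high cells, 534 and 303 CPM. The likeness did not extend to Chga, at 2232 CPM in EL1 and 973 CPM in WTg in these barcodes. That was below the 3560 and 2134 CPM of all kept cells. Syp was at 43.0 CPM in EL1 and 47.2 CPM in WTg, against 99.1 and 92.9 CPM in Chga-high cells. Vamp8 was at 41.3 CPM in EL1 and 35.9 CPM in WTg in the same barcodes, below its 133 and 119 CPM in kept cells.

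The log2 ratio of Vamp8 between Chga-high and enzyme-high cells had opposite signs in the libraries, 0.15 (0.03 to 0.27) in EL1 and -0.14 (-0.28 to -0.00) in WTg. With 1 library each, the difference was not tested. Under TMM scaling both ratios were below 0, at -0.44 and -0.81.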

How the results depend on the processing

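The count of members past 2-fold between WTg and EL1 depended on how cells were classed, and the cause was not tested. In Chga-high cells it went from 0 to 1 with the top 10% in place of the top 25% and to 2 with the same threshold in both libraries, where Snap25 reached a log2 ratio of 1.26 and Syt7 1.06. In enzyme-high cells it went from 1 to 0 with the top 10% (Snap25 at 0.89) and to 2 with the same threshold. Of 4 members with shares that did not overlap, 1 was left with thinning to 1000 UMIs, which leaves fewer UMIs per cell. At 5000 UMIs there were again 4, with Stx1a in place of Vamp2. The other 61 alternative counts, which take both directions together, were within 1.5 times. By direction, TMM scaling moved the members lower by 2-fold in Chga-high cells from 0 to 1 in WTg and in both libraries, the pathway genes lower from 0 to 2 in EL1, 1 to 4 in WTg and 0 to 1 in both, and the pathway genes higher in WTg from 32 to 20. Of 450 alternative ratios of single members, 367 lay within the interval of the ratio reported and 83 beyond it. No ratio that was past 2-fold as reported changed sign. Stx1a, WTg over EL1, in enzyme-high cells, which had too few UMIs to be tested, went from -0.01 to 1.60 with the top 10%. Snap25, WTg over EL1, stayed past 2-fold over all cells (from 1.0005, with each cell weighted equally, to 1.26) and ranged from 0.77 to 1.26 in Chga-high and from 0.89 to 2.16 in enzyme-high cells. No paired analysis was possible because neither group has more than 1 library. Depth limits Stx1a and Rab3a most, with under 180 UMIs of each per library.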
